A study of Mus musculus with 2 samples.

Results

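Cytosolic ribosomal protein genes were taken as the genes whose symbols consist of Rpl, Rps or Rplp, a number and at most 1 letter a, x or l. This gave 79 members of the 32285 genes listed, 49 for the large and 30 for the small subunit. Of them, 78 had a unique molecular identifier (UMI, a tag that marks 1 captured mRNA molecule) in a kept cell, and Rpl10l had none. The data were 2 droplet single-cell RNA-seq libraries of live-sorted mononuclear cells from the limb muscle of aged C57BL/6 mice, 1 library per treatment. The MVC library came from mice injected with Maraviroc, a small-molecule drug, and the DMSO library from mice given the vehicle. The labels gave the treatment alone, and the study's methods give repeated intraperitoneal injection under more than 1 regimen. The paper describes its single-cell experiment directly after its high-dose, short-term regimen. The regimen and the number of mice behind each library were not given in the labels, so the spread between mice could not be measured and no test between the treatments was possible. Every interval below is a 95% interval for counting error only. Symbols outside the pattern, such as Rpsa, Rps3a1, Rpl36al and Rpl22l1 and the fusion gene Fau, were kept apart.

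Each cytosolic ribosome joins a small subunit, which decodes the mRNA, to a large subunit, which forms the peptide bonds, and most of their proteins are needed in equal number. Their mRNAs begin with a run of pyrimidines, the 5' terminal oligopyrimidine motif, through which mTORC1 signalling controls their translation. In satellite cells, the stem cells of skeletal muscle (MuSC), growth of the ribosome pool is a known part of leaving quiescence, and resting lymphocytes are known to devote much of their mRNA to these genes. A few members have a paralog with a narrower pattern of expression, of which muscle-specific Rpl3l is the best known.

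After removal of cells with fewer than 500 genes or more than 10% mitochondrial UMIs, 5437 cells and 38748234 UMIs remained in the DMSO library and 5454 cells and 35518029 UMIs in the MVC library. Their median depth was 5802 and 5195 UMIs per cell. The libraries shared 9 cell barcodes. In the 375 and 593 barcodes removed, the members held 7.31% and 4.30% of the UMIs. Cells were clustered without the member genes, and all 26 clusters could be named from markers, giving 16 classes. The mononuclear cell types of muscle seen by their markers included MuSC-like cells, fibro-adipogenic progenitors (FAP-like) and endothelial cells (EC-like). The sort was for mononuclear cells, and only 14 and 24 cells were myofibre-like.

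The members made up 7.91% of all UMIs in the DMSO library (95% CI 7.90 to 7.92) and 6.98% in the MVC library (6.97 to 6.99). Single cells ranged from 0.0629% to 43.6% in the DMSO and from 0.0696% to 43.6% in the MVC library. The median cell had 6.21% and 5.68%. The spread between cells was far wider than the gap between the libraries.

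Lymphocytes had the largest share. In T/NK-like cells the members held 21.3% of the UMIs in the DMSO library (186 cells) and 14.2% in the MVC library (58 cells), and in B cell-like cells 16.3% and 13.0%. MuSC-like cells came next with 11.7% and 11.6%. FAP-like cells, the stromal progenitors of muscle, had 8.26% and 7.27%, and tenocyte-like cells 7.34% and 6.81%. EC-like cells, the most numerous class, had 6.07% and 5.47%, and macrophage-like cells 7.74% and 8.40%. Pericyte-like cells were low, at 3.44% and 3.39%, and neutrophil-like cells lowest, at 1.75% and 2.04%. The lowest and highest of the 16 classes were thus the same in both libraries. Neighbours in this order, such as Schwann-like (4.47% and 3.79%) and perineurial-like cells (4.45% and 4.43%), could not be told apart without replicate libraries. Neutrophil-like cells, with a median of 6306 and 6087 UMIs, were nearly as deep as MuSC-like cells with 6764 and 6417.

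**Figure D1:**
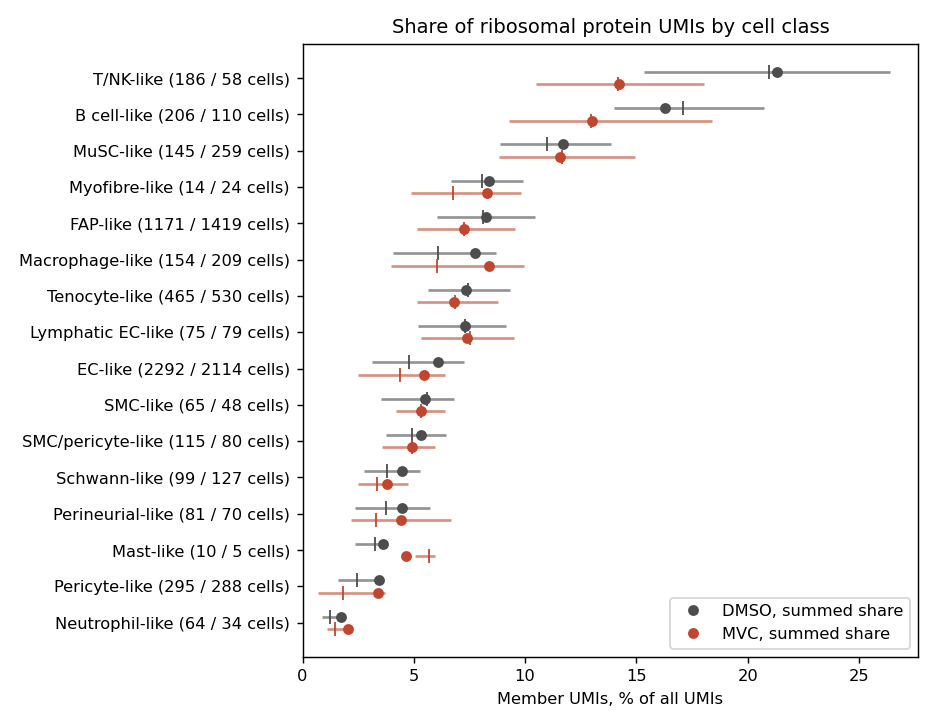
Share of UMIs from the 79 members in each of the 16 cell classes, with grey for the DMSO and red for the MVC library. Dots are the share summed over cells, ticks the median cell and lines the quartile range across cells; cell numbers are in brackets. T/NK-like and B cell-like cells lie at the top and neutrophil-like cells, at 1.75% and 2.04%, at the bottom in both libraries.

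Next, it was examined whether the members kept fixed proportions to each other across classes. For this the UMIs of each member were expressed as a share of all member UMIs in the 7 classes with at least 100 cells in each library. Among 76 members with at least 100 UMIs in every such class, the class with the highest share exceeded the lowest by a median of 1.34-fold, and for 53 members this range was below 0.5 on the log2 scale. Only 2 members exceeded 1 on that scale. Rps27l, a paralog of the zinc-finger protein Rps27 and a known p53 target, took 0.394% of member UMIs in macrophage-like cells of the DMSO library and 0.323% in the MVC library, against 0.0860% and 0.0895% in B cell-like cells, a 4.06-fold range on the mean of both libraries. Rps29, also a zinc-binding protein of the small subunit, took 3.63% and 3.32% in macrophage-like cells and 1.51% and 1.56% in MuSC-like cells, a 2.26-fold range. In both cases the values of the high class lay above those of the low class in each library.

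Rps27 itself was highest in B cell-like cells (3.51% and 2.75%) and, on the mean of both libraries, lowest in macrophage-like cells (1.94% and 1.56%), the reverse of its paralog. Rpl4 ranged 1.72-fold and Rpl10a 1.70-fold, both with their highest share in MuSC-like cells. At the other end, Rpl19, a large-subunit protein that reaches across to the small subunit, ranged only 1.11-fold, with shares of 1.21% to 1.35% in the DMSO and 1.36% to 1.49% in the MVC library. Rpl35 (1.14-fold) and Rpl8 (1.15-fold) followed. The deviation of each class from the mean of the classes recurred between libraries, with Pearson's r across the 76 members of 0.77 in pericyte-like cells to 0.92 in B cell-like cells. These values describe genes of the same cells, which are not independent, and carry no test.

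**Figure D2:**
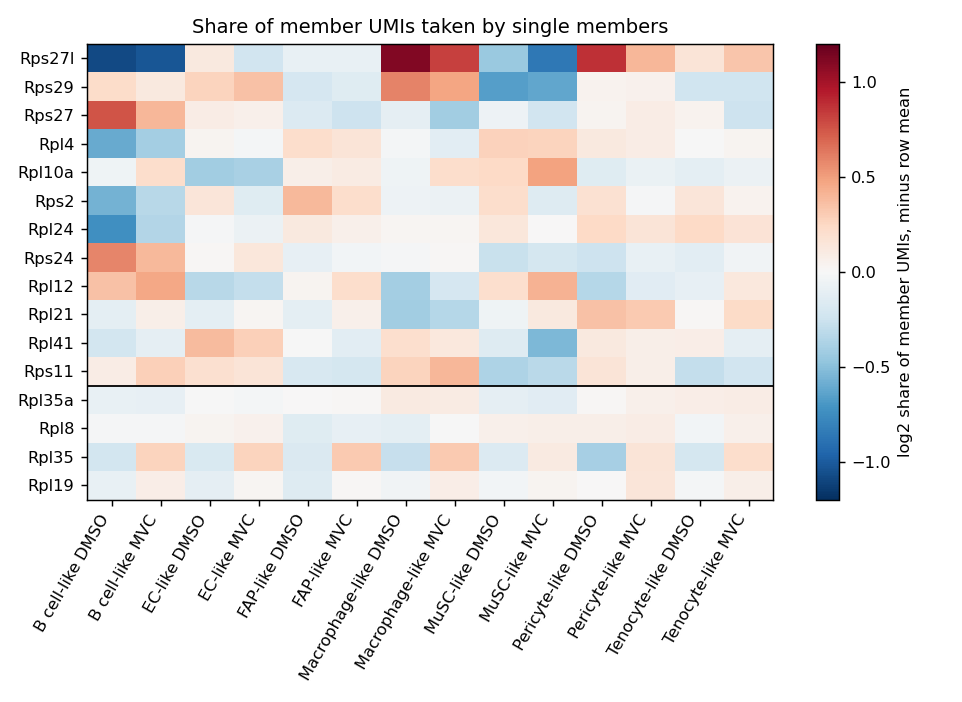
Share of member UMIs taken by the 12 members with the widest range across 7 classes and, under the line, the 4 with the narrowest. Colour is the log2 share minus the row's mean, and each class has a DMSO and an MVC column. Rps27l is deep blue in both B cell-like columns and deep red in both macrophage-like columns, while Rpl8 and Rpl19 stay pale.

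The paralogs departed most from the other members. Across 31 profiles of class and library, a member's level followed the sum of the other members with a median r of 0.97, but r was 0.11 for Rpl3l, 0.13 for Rpl39l and 0.58 for Rps27l. Rpl3l and Rpl39l had only 157 and 269 UMIs in all, against 9913 for Rps27l and more for the other measured members. Counting error is thus large in their r, and its part was not tested. Rpl10l, a retrogene of Rpl10 known from the testis, had 0 UMIs in both libraries. A count of 0 allows up to 3 UMIs per library, which is 0.0774 UMIs per 1000000 UMIs (counts scaled in this way are written CPM) in the DMSO and 0.0845 CPM in the MVC library.

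Rpl3l encodes the striated-muscle form of Rpl3, a protein near the peptidyl transferase centre. It had 157 UMIs in all, and 91 of them (58.0%) came from the 38 myofibre-like cells. Its level there was 645 CPM in the DMSO library (43 UMIs) and 533 CPM in the MVC library (48 UMIs). In all other classes both libraries together gave at most 4.25 CPM, the value of neutrophil-like cells from 3 UMIs. EC-like cells, for example, had 15 UMIs in 14 of 4406 cells, where a share this low cannot be told apart from free RNA. Rpl3 had 249 CPM in myofibre-like cells (39 UMIs in 8 of 38 cells, Poisson interval 177 to 340), below the 521 CPM of EC-like and 1020 CPM of MuSC-like cells. Mast-like (263 CPM) and pericyte-like cells (300 CPM) lay within that interval. Neutrophil-like cells were lower still, at 77.9 CPM. MuSC-like cells, the precursors of myofibres, had 1 UMI of Rpl3l in each library. Within the myofibre-like class, Rpl3 was 105 CPM in the DMSO library (7 UMIs in 1 of 14 cells) and 355 CPM in the MVC library (32 UMIs in 7 of 24 cells), numbers of cells too small to compare the libraries.

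Rpl39l differs from Rpl39, a small protein that lines the exit tunnel of the large subunit, by 23 of 156 coding bases (85.3% identity). Rps27l differs from Rps27 by 61 of 255 (76.1% identity). The coding sequences are shown so that the divergence of each pair can be seen, and capitals mark each differing base (GENCODE M21, GRCm38). Rpl39 lies at chrX:37082520-37085402 on the minus strand, Rpl39l at chr16:10170226-10174911 on the plus strand, Rps27 at chr3:90212522-90213651 on the minus strand and Rps27l at chr9:66946086-66949516 on the plus strand.
Rpl39: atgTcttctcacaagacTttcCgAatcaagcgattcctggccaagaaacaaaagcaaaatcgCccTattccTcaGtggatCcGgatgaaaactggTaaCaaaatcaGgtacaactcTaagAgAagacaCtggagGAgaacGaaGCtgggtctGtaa
Rpl39l: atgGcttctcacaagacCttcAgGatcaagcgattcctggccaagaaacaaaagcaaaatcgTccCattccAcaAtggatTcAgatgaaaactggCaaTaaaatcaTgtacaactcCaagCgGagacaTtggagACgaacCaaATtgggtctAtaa
Rps27: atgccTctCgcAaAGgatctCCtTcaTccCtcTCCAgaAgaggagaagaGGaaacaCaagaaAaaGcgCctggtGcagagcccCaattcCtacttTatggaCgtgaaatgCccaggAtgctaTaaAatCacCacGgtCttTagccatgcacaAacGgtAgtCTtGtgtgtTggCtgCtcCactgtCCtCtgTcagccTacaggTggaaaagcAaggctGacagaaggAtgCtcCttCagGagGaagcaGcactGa
Rps27l: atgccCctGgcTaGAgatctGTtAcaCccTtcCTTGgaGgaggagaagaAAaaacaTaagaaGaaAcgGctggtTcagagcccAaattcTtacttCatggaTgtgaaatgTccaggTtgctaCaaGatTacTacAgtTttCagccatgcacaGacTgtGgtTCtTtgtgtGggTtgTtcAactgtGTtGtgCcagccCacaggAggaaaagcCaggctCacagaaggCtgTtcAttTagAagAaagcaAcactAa
Of the words of 31 bases in the last 500 bases of their transcripts, Rpl39l shared 2.26% and Rps27l 19.1% with any other annotated gene, and Rpl3l shared 0%.

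Rpl39l was found mainly in stromal cells. Of its 269 UMIs, 153 came from FAP-like and 83 from tenocyte-like cells, both of them stromal classes that make matrix. Its level in FAP-like cells was 4.42 CPM in the DMSO and 7.19 CPM in the MVC library (56 and 97 UMIs; ratio 1.63, interval 1.16 to 2.30) and 9.30 and 10.0 CPM in tenocyte-like cells (39 and 44 UMIs; ratio 1.08, interval 0.686 to 1.71). EC-like cells had 0.377 CPM over both libraries, from 7 UMIs in 4406 cells. MuSC-like and B cell-like cells had none, which allows up to 2.73 and 1.61 CPM in MuSC-like cells of the DMSO and MVC library and up to 2.50 and 3.93 CPM in B cell-like cells. Macrophage-like cells had 0 UMIs in the DMSO and 9 in the MVC library, at least 2.69-fold higher when the limit of 3 UMIs is used, but these 9 UMIs came from 5 cells. Rpl39 itself had a ratio of 0.852 in FAP-like cells (1264 and 1077 CPM), below 1 where its paralog was above. Levels of different genes were not ranked, since capture differs between transcripts.

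Rps27l was found in every class. Macrophage-like cells had 305 CPM in the DMSO and 271 CPM in the MVC library, and myofibre-like cells 435 and 211 CPM from 29 and 19 UMIs. Neutrophil-like cells had only 23.0 and 30.7 CPM. The remaining classes, including EC-like (120 and 84.8 CPM), FAP-like (142 and 125 CPM) and MuSC-like cells (156 and 116 CPM), lay between neutrophil-like and macrophage-like cells. Rps27l had a ratio of MVC to DMSO below 1 in EC-like cells (ratio 0.706, interval 0.643 to 0.775) in pericyte-like cells (0.710, 0.549 to 0.913), in MuSC-like cells (0.744, 0.606 to 0.914) and in FAP-like cells (0.878, 0.821 to 0.939). In tenocyte-like cells the ratio was 1.05 (0.940 to 1.17).

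**Figure D3:**
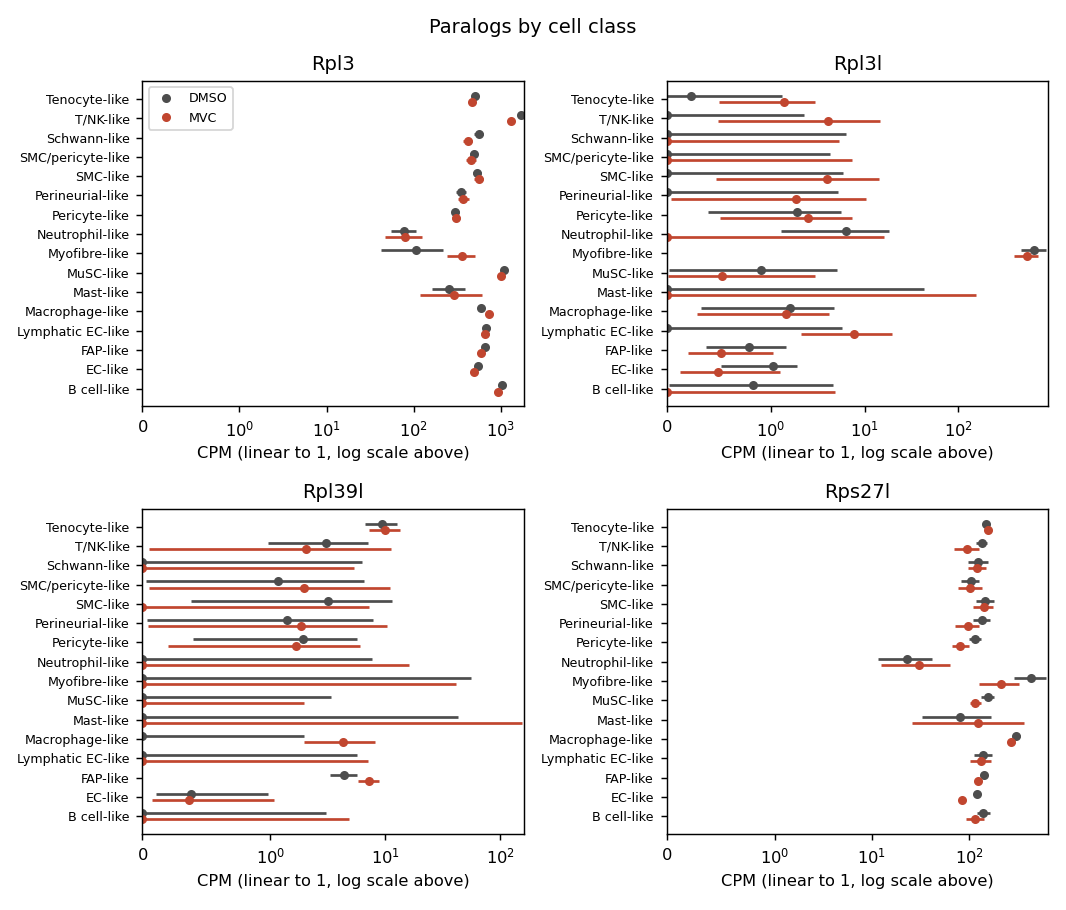
Level in CPM of Rpl3 and of the paralogs Rpl3l, Rpl39l and Rps27l in each class, grey for DMSO and red for MVC, with exact Poisson intervals as lines; the axis is linear to 1 CPM and logarithmic above. Rpl3l exceeds 500 CPM in myofibre-like cells and stays under 10 CPM elsewhere, and Rpl39l lies at 9.30 and 10.0 CPM in tenocyte-like and at 4.42 and 7.19 CPM in FAP-like cells.

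Promoter sequence was available from RefSeq (GRCm38.p6) for 59 of the 79 members. In the 100 bases from 50 before to 50 after the start, the pyrimidine word CTTTCC or its reverse complement GGAAAG was found in 20 of 59 members (33.9%), compared with 10.3% of all 27025 genes. The ETS-factor word CGGAAGT or its reverse ACTTCCG was found in 14 of 59 (23.7%), compared with 4.39% of all genes. Matches to the 2 words can share at most 1 end base. The 4 promoters below show the paralogs with their parents, 5' to 3', with matches in capitals. They lie at chr3:90213599-90213698 (minus), chr9:66946036-66946135 (plus), chrX:37085173-37085272 (minus) and chr16:10170178-10170277 (plus).
Rps27: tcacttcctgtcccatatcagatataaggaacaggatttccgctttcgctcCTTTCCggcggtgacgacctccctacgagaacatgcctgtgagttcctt
Rps27l: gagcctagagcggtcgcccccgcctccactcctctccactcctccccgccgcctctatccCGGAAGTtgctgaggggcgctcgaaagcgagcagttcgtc
Rpl39: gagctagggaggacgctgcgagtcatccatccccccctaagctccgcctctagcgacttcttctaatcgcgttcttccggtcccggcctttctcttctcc
Rpl39l: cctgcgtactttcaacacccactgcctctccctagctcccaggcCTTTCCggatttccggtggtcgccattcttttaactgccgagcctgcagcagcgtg
Rps27 and Rpl39l each held the pyrimidine word and Rps27l the ETS word, while neither set of letters occurred in the window of Rpl39. These are matches of letters and not measured binding sites.

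The study asked whether Maraviroc changes aged muscle cells, and the members were therefore compared between the libraries within each class. The member share was lower in the MVC library in 12 of 16 classes, and in 6 of the 7 classes with at least 100 cells in each library. Among the classes with a lower share, the ratio was furthest from 1 in T/NK-like cells (ratio 0.666, interval 0.661 to 0.671) and B cell-like cells (0.799, 0.793 to 0.805), followed by Schwann-like (0.849, 0.834 to 0.864), FAP-like (0.880, 0.878 to 0.883), EC-like (0.90, 0.897 to 0.904) and tenocyte-like cells (0.928, 0.923 to 0.933). Called doublets made up 4.84% of T/NK-like cells in the DMSO and 17.2% in the MVC library, and 5.34% and 13.6% of B cell-like cells. The share without doublets was not taken in these lymphocyte classes, and the part of doublets in their values was not tested. In the summed share MuSC-like cells differed little (0.990, 0.983 to 0.997), and pericyte-like cells likewise (0.984, 0.972 to 0.997). The median cell, however, had 11.0% and 11.6% in the former and 2.47% and 1.81% in the latter. The interval lay above 1 in 3 classes. These were mast-like cells (1.29, 1.2 to 1.38, from 10 and 5 cells), neutrophil-like cells (1.16, 1.12 to 1.21, from 64 and 34 cells) and macrophage-like cells (1.09, 1.08 to 1.09), in which the median cell had 6.10% and 6.05%. Called doublets made up 21.9% and 32.4% of the neutrophil-like and 16.9% and 10.5% of the macrophage-like cells. The share without doublets was not taken in neutrophil-like cells. The sums are narrow only because they hold so many UMIs, and no replicate shows how far 2 libraries of the same treatment would differ.

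Since the libraries filled the clusters of a class unequally, the share was also taken within clusters. It was lower in the MVC library in 13 of the 15 clusters with at least 100 cells in each. All 3 FAP-like clusters of that size were lower, with ratios of 0.875 to 0.935. Of 6 EC-like clusters 5 were lower, with ratios from 0.851 upward, and the exception had a ratio of 1.06. That cluster, with medians of 2198 and 1572 UMIs, had 8 endothelial markers raised by a mean log2 fold of 2.02, and its erythroid markers stood higher by a mean of 3.95. This was not particular to it. Another EC-like cluster, with a share ratio of 0.941, had erythroid markers higher by a mean of 2.38, beside 2.21 for its endothelial markers. The part of red cell RNA in the values of these clusters was not tested.

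At the level of single genes, the log2 ratio of MVC to DMSO was taken after adding 10 CPM to each level, for genes with at least 20 UMIs, and a gene was counted as lower or higher when it passed 1.2-fold. Over all cells 18 of 78 members were lower and 2 higher, with a median log2 ratio of -0.16, while 3.87% of all genes measured were lower and 5.95% higher, with a median of 0.02. In FAP-like cells 20 of 77 members were lower and 2 higher (median -0.17), against a background of 4% lower and 12.9% higher. In EC-like cells 10 of 76 were lower and 2 higher (median -0.17), against 5.86% and 12.3%. With libraries scaled by the median ratio over genes instead, 51 members were lower in FAP-like cells, with 7.77% of all genes lower under that scaling, and 28 in EC-like cells, with 8.53%. Tenocyte-like cells had 10 of 77 lower and 2 higher (median -0.09), against 11.3% and 15.6%, so the share past the threshold was close to the background there. B cell-like cells had 38 of 76 lower and 1 higher (median -0.27), against 24.2% and 28.6%. The remaining classes did not show this pattern. Macrophage-like cells had 0 lower and 12 of 76 higher (median 0.13), against 15.5% and 23%. MuSC-like cells had 5 of 76 lower and 1 higher (median -0.03), against 24% and 22%, and pericyte-like cells 3 lower and 3 higher (median -0.02), against 15.9% and 25.9%. In the last 3 classes the members past the threshold in either direction were no more frequent than among all genes. Most genes of this background have far fewer UMIs than the members, so their ratios carry more counting error. The 10 CPM added also pulls the ratios of low genes towards 0, so that they pass 1.2-fold less easily. Rpl39l over all cells, for example, had a ratio of 1.55 but a log2 ratio of 0.17. The background was thus not matched to the members in level.

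**Figure D4:**
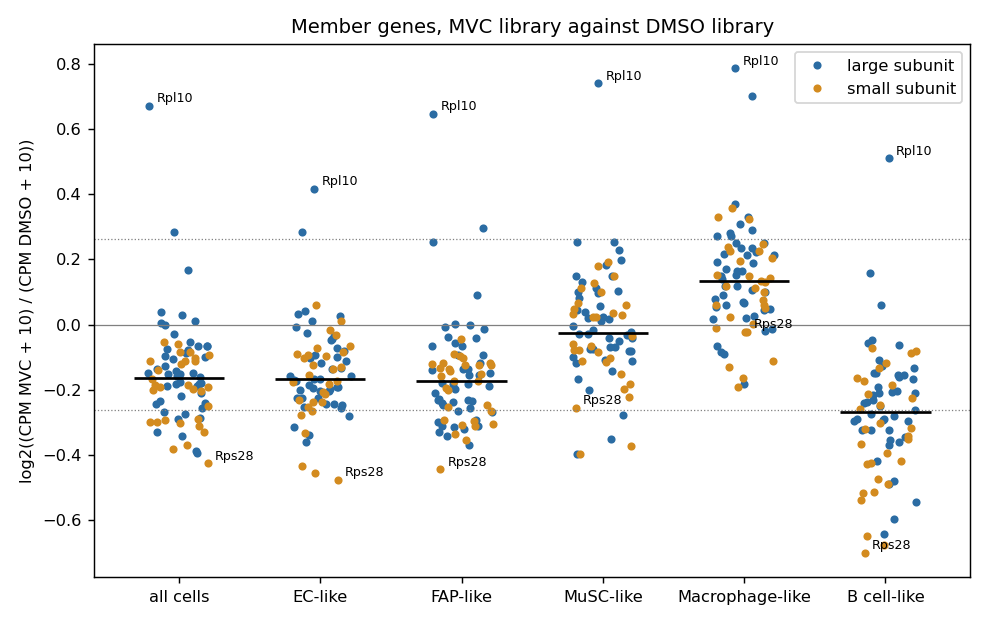
Log2 ratio of MVC to DMSO, with 10 CPM added to both, for each member with at least 20 UMIs in all cells and in EC-like, FAP-like, MuSC-like, macrophage-like and B cell-like cells (blue, large subunit; orange, small subunit). Bars are medians and dotted lines mark 1.2-fold. The medians lie near -0.17 in all cells, EC-like and FAP-like cells, near 0 in MuSC-like cells, at 0.13 in macrophage-like cells and at -0.27 in B cell-like cells, and Rpl10 is the highest member in each of the 6 columns.

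Among the members with the lowest ratio, Rps28, a small-subunit protein at the mRNA exit, recurred. It had 1115 CPM in the DMSO and 827 CPM in the MVC library over all cells (ratio 0.742, interval 0.731 to 0.753). It was lower in all 7 large classes, with ratios from 0.614 to 0.985, and in 15 of all 16. Rpl27 (706 and 535 CPM, ratio 0.758) and the acidic stalk protein Rplp2 (1360 and 1038 CPM, ratio 0.763) followed over all cells. Rps2, which lies near the mRNA entry channel, was among the 3 lowest in EC-like (898 and 661 CPM, ratio 0.737), FAP-like (1441 and 1126 CPM, ratio 0.781) and MuSC-like cells (1799 and 1387 CPM, ratio 0.771). Rpl34 was so in FAP-like cells (1274 and 985 CPM, ratio 0.773) and Rpl41, the smallest member, in MuSC-like cells (1616 and 1226 CPM, ratio 0.758). In macrophage-like cells even the lowest members, Rps27 (0.874), Rpl27 (0.879) and Rps27l (0.890), had ratios nearer to 1.

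The stalk of the large subunit, which recruits the elongation factors, is built by Rplp0, Rplp1 and Rplp2. Over all cells their ratios were 0.844, 0.859 and 0.763. In EC-like cells they were 0.776, 0.854 and 0.802, and in FAP-like cells 0.804, 0.838 and 0.788. Rplp2 was lower in all 7 large classes, with ratios from 0.684 to 0.939. Rplp0 was higher in 1 of the 7, at 1.01 in macrophage-like cells, and Rplp1 in 2.

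Large-subunit UMIs outnumbered small-subunit UMIs by 1.24 to 1 in the DMSO and by 1.29 to 1 in the MVC library. This ratio was higher in the MVC library in 15 of 16 classes, the exception being SMC-like cells (1.34 and 1.33). In EC-like cells it was 1.21 and 1.22 and in FAP-like cells 1.27 and 1.31. Without Rpl10 and Rpl35, a choice made after their values were seen, it was 1.21 and 1.25 over all cells and still higher in 15 of 16 classes. The libraries then differed little in EC-like cells (1.183 and 1.187) and in FAP-like cells (1.247 and 1.263).

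Over all cells 71 of 78 members had a log2 ratio below 0 and 7 above, where the median over all genes was 0.02. The 2 members that passed 1.2-fold higher were Rpl10 and Rpl35. Rpl10, which completes the large subunit at the site where tRNAs enter, had 501 CPM in the DMSO and 803 CPM in the MVC library (ratio 1.60, interval 1.57 to 1.63). It was higher in all 7 large classes, with ratios from 1.34 in EC-like cells to 1.86 in tenocyte-like cells, and not lower in any of the 16 (417 CPM in both libraries in mast-like cells). In MuSC-like cells it had 758 and 1272 CPM, in macrophage-like cells 614 and 1065 CPM, and in FAP-like cells 581 and 915 CPM. Rpl35, at the exit of the tunnel, had 377 and 461 CPM over all cells (ratio 1.22), and was higher in all 7 large classes with ratios of 1.12 to 1.64. The next highest members were Rps19 in EC-like cells (811 and 847 CPM, ratio 1.04), Rpl13a in MuSC-like cells (1452 and 1732 CPM, ratio 1.19) and Rpl10a in macrophage-like cells (430 and 558 CPM, ratio 1.30). In macrophage-like cells 63 of 76 members lay above 0, and in MuSC-like cells 35 of 76, where the median over all genes was 0.04 and -0.02. The share of all genes above or below 0 was not taken. With classes drawn from each cell's own markers, the member median in macrophage-like cells turned to -0.036.

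Both genes have near-identical copies, so their counts are uncertain. Of the 31-base words in the last 500 bases of their transcripts, Rpl10 shared 84.3% and Rpl35 51.9% with other genes listed in the matrix. The listed copy of Rpl10, Rpl10-ps3, had 2468 UMIs in the DMSO and 1180 in the MVC library (CPM ratio 0.522). The copy of Rpl35, Gm2000, had 4909 and 2082 UMIs (0.463). Summed with its copy, Rpl10 had a ratio of 1.48 (interval 1.46 to 1.51) and Rpl35 of 1.03 (1.01 to 1.05), so that little of the Rpl35 difference remained. The other way round, Rps27 with its copy Rps27rt (5007 and 1276 UMIs, ratio 0.278) had a ratio of 0.732 in place of 0.766. Other genes of the matrix shared many such words with 12 members, and for 11 of these members the sharing genes had a ratio under 1. Examples were 0.350 for Rpl9-ps6, 0.608 for Rpl36a-ps1 and 0.620 for Gm10076, the copy of Rpl41. The 12 also rest on genes not named as copies, Wdr89 for Rplp2 and Hand2os1 for Rps7. Rplp2 shared 43.8% of its words with genes of the matrix. The share of all genes with a ratio under 1 was not taken. How reads of such copies were assigned in each library was not tested. Rps28 shared 25% of its words with any annotated gene and 0% with genes listed in the matrix.

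Shallow cells differed most between the libraries. Among EC-like cells with fewer than 2000 UMIs, the median member share was 5.09% in the DMSO library (322 cells, quartiles 1.96 to 13.0%) and 1.76% in the MVC library (625 cells, quartiles 0.831 to 5.76%). Their mitochondrial UMIs were 2.57% and 1.91% and those of the nuclear RNA Malat1 1.57% and 1.83% at the median. From 2000 to below 5000 UMIs the order turned, with 4.23% and 4.45%, and from 5000 to below 10000 UMIs it was 5.82% and 5.32%. In FAP-like cells the MVC library was lower in all 5 depth bins, from 14.0% against 8.17% under 2000 UMIs to 7.34% against 6.10% at 20000 UMIs and above. When every cell was thinned to 2000 UMIs, which left out 447 DMSO and 981 MVC cells, the difference was -0.93 percentage points in FAP-like cells, close to the unthinned -0.99, but shrank from -0.60 to -0.20 in EC-like cells. In MuSC-like cells it went from -0.12 to 0.54, so no direction can be given for them. The macrophage-like difference shrank from 0.66 to 0.25, and with classes drawn from each cell's own markers it was -0.22.

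Other genes of the translation machinery were read from lists. The 5 non-members whose level was most like the summed members across the 31 profiles, among 5274 genes, were Rps3a1 (r = 0.98), Rack1 (0.98), Rpsa (0.97), Eef1b2 (0.95) and Tpt1 (0.90). The first and the third are ribosomal proteins outside the symbol pattern and Rack1 sits on the small subunit. The profiles share libraries and depth, and these values carry no test.

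Translation genes with 5' oligopyrimidine mRNAs, which include elongation and initiation factors, were lower past 1.2-fold in 10 of 19 in FAP-like cells, where 4% of all genes were, and in 8 of 19 in EC-like cells, where 5.86% were. None was higher in either class, and the medians were -0.27 and -0.22. The elongation factor Eef2 had 485 and 354 CPM in FAP-like cells (ratio 0.729) and Eef1a1 2663 and 1884 CPM in EC-like cells (ratio 0.708). The poly(A)-binding protein Pabpc1 had 482 and 356 CPM in FAP-like cells (0.738) and the noncoding host gene Gas5 402 and 282 CPM (0.703). The list did not follow the members class by class. In pericyte-like cells 9 of 19 were lower and 0 higher (median -0.24; 15.9% of all genes lower), although 3 of 76 members were lower there. In B cell-like cells 3 of 19 were lower (24.2% of all genes), although 38 of 76 members were. Tenocyte-like cells had 7 of 19 lower and 0 higher (median -0.23; 11.3% of all genes lower). The counts in MuSC-like cells (2 lower and 2 higher) and macrophage-like cells (1 lower and 4 higher) were no larger than the shares of all genes, 24% and 22% in the former and 15.5% and 23% in the latter. Of 9 listed ribosomal protein genes outside the symbol pattern, 3 were lower in FAP-like cells and 4 in tenocyte-like cells. The EC-like, B cell-like and pericyte-like classes each had 5 lower. They included Rps27rt and Rpl9-ps6 in FAP-like and EC-like cells. Fau had 1133 and 1023 CPM in FAP-like cells (ratio 0.903).

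Ribosome biogenesis genes were lower past 1.2-fold in 14 of 20 and higher in 0 in MuSC-like cells, where 24% of all genes were lower (median -0.39). In EC-like cells 7 of 20 were lower and 1 higher, where 5.86% of all genes were lower (median -0.18), and in FAP-like cells 2 of 20 were lower, where 4% were. Nucleolin (Ncl) had 1077 and 753 CPM in MuSC-like cells (ratio 0.700, interval 0.647 to 0.756), Fbl, the methyltransferase of ribosomal RNA, 142 and 102 CPM (0.722, 0.581 to 0.898) and Nop16 59.1 and 23.6 CPM (0.399, 0.266 to 0.594). The members themselves had a median of -0.03 in these cells. In the same cells 17 of 22 immediate early and heat shock genes known to respond to tissue dissociation were higher and 1 lower, where 22% of all genes were higher, with Fos at 504 and 1291 CPM and Dnajb1 at 556 and 1553 CPM. Pericyte-like cells had 14 of these 22 lower and 1 higher, where 15.9% of all genes were lower. Macrophage-like cells had 10 higher and 2 lower and tenocyte-like cells 8 higher and 2 lower, where 23% and 15.6% of all genes were higher. B cell-like cells had 7 higher and 10 lower, against 28.6% and 24.2%. In EC-like cells 3 were higher and 0 lower, near the 12.3% of all genes that were higher, and in FAP-like cells 5 were higher and 4 lower, against 12.9% and 4%. The part of dissociation in the values of the members was not tested.

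Mitochondrial ribosomal protein genes had a median of 0.12 in FAP-like cells and of 0.03 over all cells. Of 78, 1 was lower and 7 were higher in FAP-like cells, both below the shares of all genes (4% and 12.9%), and 0 were lower and 0 higher over all cells (3.87% and 5.95% of all genes). Other classes differed. Tenocyte-like cells had 20 of 76 higher and 3 lower, where 15.6% of all genes were higher. B cell-like cells had 26 of 71 lower and 6 higher, and MuSC-like cells 22 of 66 lower and 9 higher. Of all genes 24.2% and 24% were lower there. For the mTORC1 pathway, 3 of 16 were lower and 2 higher in FAP-like cells, where 4% and 12.9% of all genes were, so the higher count was at the background. Rptor, the scaffold of mTORC1, had 56.2 and 78.3 CPM in these cells and Ddit4, its stress-induced inhibitor, 29.4 and 15.7 CPM. Of the p53 targets, 5 of 16 measured were lower and 0 higher in each of the FAP-like and EC-like classes, where 4% and 5.86% of all genes were lower. Among them Cdkn1a had 333 and 182 CPM in FAP-like cells and 1286 and 825 CPM in EC-like cells. The medians of the p53 list were only -0.055 in FAP-like and -0.027 in EC-like cells. Macrophage-like cells had 7 of 14 lower and 2 higher, and pericyte-like cells 7 of 16 lower and 2 higher. Of all genes 15.5% and 15.9% were lower there. In tenocyte-like cells 4 of 16 were lower and 5 higher. Rps27l passed 1.2-fold lower in EC-like cells (ratio 0.706) and did not in FAP-like cells (ratio 0.878).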

How the data were processed

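The authors deposited 1 table of raw UMI counts per library (Cell Ranger 7.0.0, per the file headers), with no normalisation. The labels also name Seurat 5.0.1 and mm10. The setting for intronic reads was not given in the sources used here. The cell filter (500 genes, 10% mitochondrial UMIs) followed the study's methods. Members and lists were chosen with earlier results of these data known.

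Cells were scaled to 10000 non-member UMIs and clustered without member, mitochondrial and sex-linked genes (scanpy 1.11.5, leidenalg 0.10.2; 2000 variable genes, 30 components, 20 neighbours, resolution 1, no integration). A cluster took a name where 3 or more markers of that class reached a log2 fold of 1 over the other cells and were seen in 20% of its own. These names were rebuilt, and values can differ from those under the authors' names for that reason. Doublets (236 DMSO and 238 MVC cells, the top scores at 0.8% per 1000 cells) were kept, and free RNA was not corrected.

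Levels were summed per class and library and scaled to 1000000 UMIs (CPM). Intervals were exact (scipy 1.17.1): Clopper-Pearson for shares, Poisson for levels and conditional for ratios. With 1 library per group no test was run. The summary step was tested on simulated data. Named genes were the paralogs with parents, the stalk genes, the 3 highest and 3 lowest ratios in 5 groups of cells (at least 100 UMIs), the 5 widest and 3 narrowest ranges across classes, the 5 non-members most like the members' sum, and members of the 7 lists. Copies were named after their values were seen. Rps4l, planned with its parent Rps4x, was not analysed here. Coding sequences came from GENCODE M21 and promoters from RefSeq. Alternatives covered the cell filter, doublets, clusters, class names, thinning, scaling, pseudocount and gene filter.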

Additional observations from a re-analysis of the deposited data

Results flagged for a closer look

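The difference in member share between the libraries (MVC minus DMSO, in percentage points of all UMIs) had the opposite sign in macrophage-like cells, at 0.661, to the other 6 classes with at least 100 cells in each library. It was -3.27 in B cell-like, -0.604 in EC-like, -0.987 in FAP-like, -0.116 in MuSC-like, -0.0537 in pericyte-like and -0.529 in tenocyte-like cells. With 1 library per treatment, the difference between classes was not tested. The macrophage-like value turned to -0.216 with classes drawn from each cell's own markers. In thinned cells the MuSC-like value turned to 0.537 and the pericyte-like value to 0.119.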

How the results depend on the processing

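No paired analysis was possible because each group held 1 library, and leaving out a replicate was not an option for the same reason. Of 46 alternative values of the member share, 17 stayed within the counting interval, 24 moved and 5 reversed. Of 51 medians, 41 stayed within the interval of the median, 9 moved and 1 reversed. The causes were not tested.

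Over all cells the share difference (MVC minus DMSO, points; -0.931 as reported) was -0.834 with the stricter cell filter, -0.965 with none, -0.950 without doublets, -0.673 thinned, -1.10 as a mean over cells, -0.987 with the genes outside the pattern added and -0.845 in cells of at least 2000 UMIs, a setting chosen after seeing the data. In EC-like cells (-0.604) it was -0.360 with the stricter filter, -0.374 with classes from own markers, -0.198 thinned, -0.944 as a mean over cells, -0.642 with genes added and -0.373 in cells of at least 2000 UMIs. In FAP-like cells (-0.987) it was -0.951 with the stricter filter, -0.938 without doublets, -0.903 with clusters drawn with members, -0.935 from own markers, -0.932 thinned and -1.03 with genes added. In MuSC-like cells (-0.116) it reversed to 0.00995 without doublets, 0.244 from own markers, 0.537 thinned and 0.719 as a mean over cells. In macrophage-like cells (0.661) it reversed to -0.216 from own markers, and was 0.781 with the stricter filter, 0.973 without doublets, 0.245 thinned, 0.337 as a mean over cells and 0.716 without mitochondrial UMIs in the denominator.

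The median log2 ratio with scaling by the median ratio over genes was -0.22 over all cells, -0.23 for EC-like and -0.31 for FAP-like cells, with 25, 28 and 51 members past 1.2-fold lower, against 5.05%, 8.53% and 7.77% of all genes under that scaling. In EC-like cells it was also -0.10 with the stricter filter, -0.11 from own markers and -0.077 thinned. Thinned, it was 0.065 in MuSC-like and 0.058 in macrophage-like cells, which had 0.18 without doublets and reversed to -0.036 from own markers. Of single genes, thinning gave a ratio of 0.782 for Rps27l in EC-like cells, 3.42 for Rpl39l in tenocyte-like cells (3 and 11 UMIs) and 1.33 for Rpl3l in myofibre-like cells (0.826 unthinned).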
